A study of Mus musculus with 6 samples.

Results

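The amino acid transporters of the renal tubule were examined in total kidney RNA of mice with polycystic kidney disease. The 10 genes are *Slc6a18*, *Slc6a19*, *Slc6a20b*, *Slc7a9*, *Slc3a1* and *Slc1a1*, whose proteins act at the apical, urine-facing membrane, and *Slc7a7*, *Slc7a8*, *Slc7a5* and *Slc3a2*, whose proteins are placed at the basolateral, blood-facing membrane. They were found in the table by gene symbol. They account for 33 of the 54721 transcripts and 10 of the 23276 gene symbols in the authors' deposited table, and each of the 10 symbols was found there. RNA came from 6 mice. In 3 (SKO), KspCre acted on *Pkd1* F/RC, a genotype with 1 floxed *Pkd1* allele and 1 germline RC allele of reduced function. In the other 3 (DKO), the same *Pkd1* genotype was combined with miR17~92 F/F, a floxed microRNA cluster. Both groups therefore carry the *Pkd1* defect, and no kidney without it was analysed here. KspCre is driven by the Ksp-cadherin promoter, which is active in tubular epithelium, so cells outside the tubules keep their floxed alleles. The share of tubule cells, those of the proximal tubule included, in which the alleles were deleted is not known here. The germline RC allele is present in all cells. The labels give the age of all 6 mice as postnatal day 22.

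The table holds a single abundance for each transcript, the authors' mean over all libraries, in CPM (counts scaled to the size of the library) on a log2 scale. It has no value for a single kidney or for a single group. The spread between mice and the depth of each library are therefore unknown here, no error or test is given for any level, and SKO and DKO kidneys are not compared. In RNA of whole kidney, fewer cells of a type and less RNA per cell cannot be told apart. The markers of the kidney were present. The 6 proximal tubule markers ranged from 11.4 CPM per kb of transcript for *Cubn* to 423 for *Slc34a1*, and *Umod* of the thick ascending limb had 374. The intestinal gene *Fabp2*, listed as one that should be absent, was at 0.0363 CPM per kb. Its 0.0351 CPM is close to the lowest level of any transcript, 0.0263 CPM, so the value per kb says little beyond that. The hepatocyte gene *Alb*, also listed as one that should be absent, had 6.58 CPM per kb, above 78.4% of genes with a known length. It was thus not absent, and the source of its reads was not tested. The injury genes *Havcr1* and *Lcn2* had 6.07 and 55.0 CPM per kb.

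The proximal tubule reclaims nearly all filtered amino acids. Carriers of the brush border take them up from the filtrate, mostly with sodium, and exchangers and uniporters of the basolateral membrane release them towards the blood. Several of the carriers work as pairs: a light chain of the Slc7 family, which forms the path for the amino acid, is held at the membrane by a heavy chain of the Slc3 family. Slc6 carriers of the brush border depend instead on collectrin, the product of *Tmem27*. In humans, loss of *SLC6A19* causes Hartnup disorder, loss of *SLC3A1* or *SLC7A9* causes cystinuria, loss of *SLC1A1* causes dicarboxylic aminoaciduria and loss of *SLC7A7* causes lysinuric protein intolerance.

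The transporters were abundant as a set, with *Slc7a5* far below the others. To compare genes, the CPM of the most abundant RefSeq mRNA of each gene was divided by the length of that transcript in kb. On this scale 9 of the 10 genes lay above the median of 1.45 CPM per kb over 20167 genes with a known length, and the median of the 10 was 21.9 CPM per kb. *Slc6a18* was highest with 105 CPM per kb, followed by *Slc3a1* with 86.3. A middle group of *Slc3a2*, *Slc7a7*, *Slc7a8* and *Slc1a1* had 27.5, 26.5, 23.1 and 20.6 CPM per kb. *Slc6a19*, *Slc7a9* and *Slc6a20b* followed with 15.3, 14.1 and 13.2 CPM per kb. *Slc7a5* had 0.818 CPM per kb. Neighbours within the middle group and within the group below it were close on the log2 scale of CPM per kb. The smallest gap was 0.05, between *Slc3a2* and *Slc7a7*, and *Slc6a20b* and *Slc7a9* were 0.10 apart. The gap of 0.05 depends on the model of *Slc3a2*, whose shorter RefSeq mRNA had 42.4 CPM per kb. Without values of single kidneys the order of such neighbours is not resolved. The gap between *Slc7a5* and its nearest member, *Slc6a20b*, was 4.01, a value that depends on the length counted for *Slc6a20b*.

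**Figure D1:**
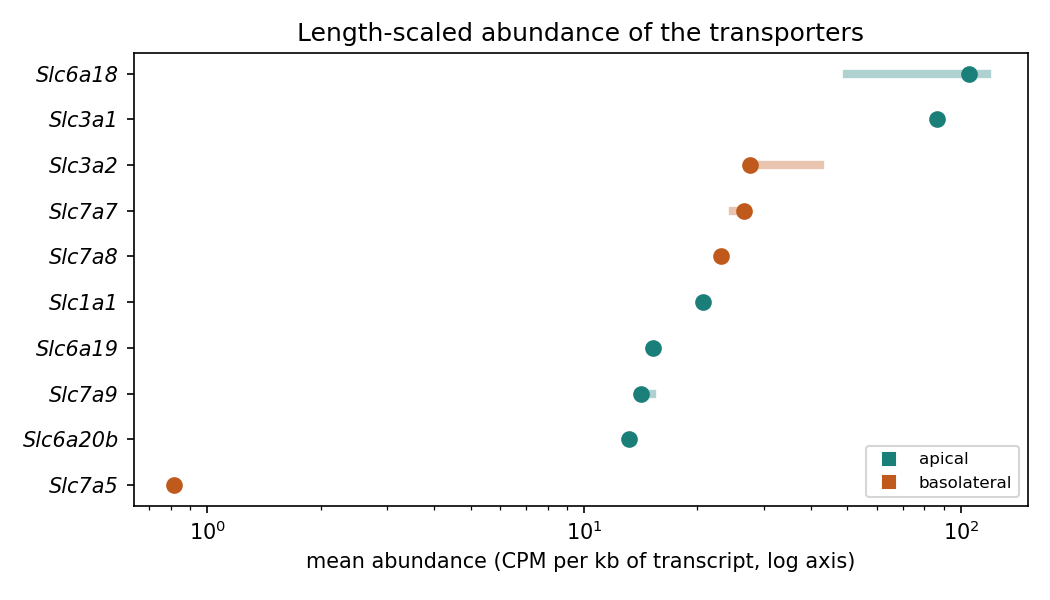
Mean abundance of each gene in CPM per kb of transcript on a log axis, with apical genes in green and basolateral genes in orange. Points show the most abundant RefSeq mRNA and pale bars the range over all RefSeq mRNAs of the gene, as for Slc6a18 (49.8 to 117) and Slc3a2 (27.5 to 42.4), and Slc7a5 stands alone at 0.818.

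Among the neutral amino acid carriers of the brush border, *Slc6a18* (B0AT3) was the most abundant gene of the set. Its 6 transcripts, all RefSeq mRNAs, had mean log2 abundances of 7.66, 7.69, 7.69, 7.69, 7.71 and 7.72. They differed by 0.06 at most, although their lengths run from 1728 to 4149 nt. The CPM of *Slc6a18* thus differed little between short and long models, and the level per kb depended on the model chosen, from 49.8 to 117 CPM per kb. The most abundant transcript, NM_001040692, has 12 exons on the reverse strand of chromosome 13 of mm10, from 73664037 to 73678001, with 210.6 CPM. By CPM per kb, 228 of the 20167 genes were higher. The ratio of *Slc6a18* to *Slc3a1* per kb was 1.22, and 0.577 to 1.36 over the models of *Slc6a18*, so that which of these genes came first depended on the model.

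*Slc6a19* (B0AT1), the main carrier of neutral amino acids in the brush border, lies next to *Slc6a18* on the same strand, with 1721 bases between the genes. Its RefSeq mRNA, NM_028878, has 12 exons between 73679745 and 73700780 on chromosome 13 and had a mean log2 CPM of 5.91. The 4 transcripts assembled from the reads had 6.17, 6.17, 6.17 and 6.22 on the same scale, so that an assembled model was the most abundant for this gene, at 74.5 CPM against 60.0 CPM for the RefSeq mRNA. Per kb, *Slc6a18* was 6.89 times as abundant as *Slc6a19*. Over the RefSeq models of *Slc6a18* this ratio ran from 3.27 to 7.68, so that it stayed above 1 for each model. In their coding sequences 62.5% of 1843 aligned bases were identical, and the longest identical run was 29 bases, shorter than the reads.

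*Slc6a20b* belongs to the same family and is the close paralogue of *Slc6a20a*, a carrier of imino acids such as proline. The 2 genes lie side by side on the reverse strand of chromosome 9, with 2204 bases between them. The GENCODE model of *Slc6a20b* has 11 exons from 123590800 to 123632565 and runs past the bounds that RefSeq gives the gene. Its length was therefore counted within those bounds (3257 of 6307 nt), a choice made after the full length had first been used, and the full length gives 6.80 CPM per kb in place of 13.2. *Slc6a20b* had 3 transcripts, a RefSeq mRNA of 42.9 CPM (log2 CPM 5.42) and a pair of assembled models of 30.6 and 20.6 CPM (4.94 and 4.37). *Slc6a20a* was rarer, with 2.81 CPM per kb for its RefSeq mRNA against 13.2 for *Slc6a20b*, a ratio of 4.68. This ratio holds for the bounded length and is smaller with the 6.80 CPM per kb of the full length of *Slc6a20b*. The most abundant model of *Slc6a20a* was an assembled one, with 10.3 CPM against 5.33 for the RefSeq mRNA.

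The similarity of this pair bears on both values. Their coding sequences were identical at 1625 of 1776 aligned bases (91.5%), with an identical run of 321 bases, and a read from such a run fits both genes. Reads of this study were sequenced to 51 bases, and alignments of low mapping quality were discarded by the authors. Of the 51-base windows of the *Slc6a20b* transcript within the RefSeq bounds, 623 of 3207 (19.4%) also occur in *Slc6a20a*. Likewise, 33.8% of the *Slc6a20a* windows occur in *Slc6a20b*. The GENCODE model of *Slc6a20b* also overlaps *Sacm1l* on the opposite strand, from 123590800 to 123592600. Sequence outside the RefSeq bounds was not part of these counts. What these shared windows did to the 2 levels was not tested. A window from exon 6, identical in both genes, and a window from exon 11, where the genes differ most, are shown to make clear which reads can tell them apart. Sequences are from GENCODE transcripts of GRCm38, the assembly also known as mm10, and run 5′ to 3′ on the reverse strand. Capitals mark the bases that differ between the genes.
Slc6a20b and Slc6a20a, exon 6, chr9:123604719-123604769 and chr9:123656232-123656282: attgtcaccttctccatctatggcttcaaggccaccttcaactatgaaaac
Slc6a20b, exon 11, chr9:123594999-123595049: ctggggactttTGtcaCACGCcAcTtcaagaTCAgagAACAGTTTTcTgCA
Slc6a20a, exon 11, chr9:123637002-123637052: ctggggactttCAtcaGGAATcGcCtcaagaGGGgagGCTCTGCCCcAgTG
These last windows differ at 24 of 51 bases and stand at the end of the coding sequence, at coding positions 1852 to 1902 of *Slc6a20b* and 1723 to 1773 of *Slc6a20a*.

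**Figure D2:**
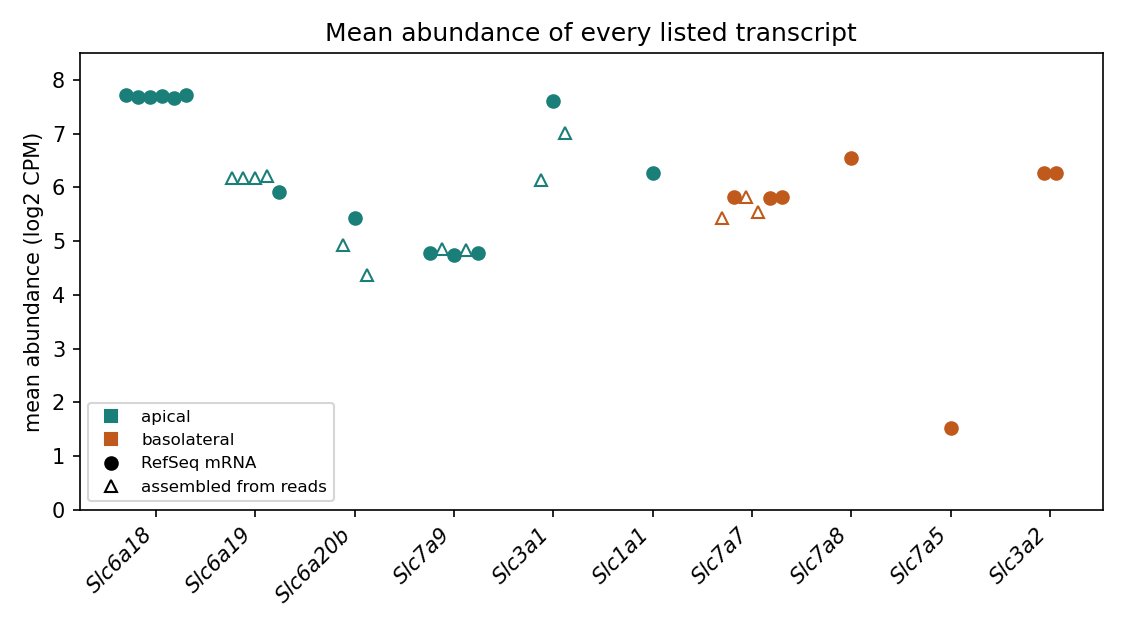
Mean log2 CPM of each of the 33 transcripts, by gene. Filled circles are RefSeq mRNAs, open triangles models assembled from the reads, green apical and orange basolateral genes. The 6 models of Slc6a18 lie together between 7.66 and 7.72, whereas the 3 of Slc3a1 spread from 6.14 to 7.61.

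Cystine and the dibasic amino acids are taken up by a complex of the light chain b0,+AT (*Slc7a9*) and the heavy chain rBAT (*Slc3a1*). The heavy chain was the second most abundant gene of the set. Its RefSeq mRNA, NM_009205, with 10 exons on the forward strand of chromosome 17 from 85028376 to 85064236, had a mean log2 CPM of 7.61, or 196.0 CPM. A pair of assembled models had 128.2 and 70.3 CPM. This range of 1.48 on the log2 scale was the widest of any member. The light chain had 5 transcripts within 0.12 of each other on the log2 scale. Its 3 RefSeq mRNAs had 27.4, 26.7 and 27.4 CPM and its assembled models 29.1 and 28.5 CPM. The RefSeq mRNA of *Slc7a9* with the highest CPM, NM_021291, has 13 exons on the forward strand of chromosome 7 from 35449170 to 35466036.

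Per kb, the heavy chain *Slc3a1* was 6.11 times as abundant as its light chain *Slc7a9*, and at least 5.69 times over the RefSeq models of *Slc7a9*. *Slc7a13*, whose product AGT1 is another light chain of rBAT, had 13.6 CPM per kb, close to the 14.1 of *Slc7a9*. The heavy chain still had 3.12 times the summed level of both light chains. Of the 51-base windows of the *Slc3a1* mRNA, 24.8% lie in exons of *Prepl* on the opposite strand, a gene with 17.7 CPM, where reads of the 2 genes differ by strand alone. The libraries were strand-specific, and the sources used here do not state the strand setting of the counting. The *Slc7a9* mRNA shares no 51-base window with another gene.

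*Slc1a1* (EAAC1), the carrier of glutamate and aspartate in the brush border, had 1 transcript, NM_009199, with a mean log2 CPM of 6.27 (77.2 CPM). It has 12 exons on the forward strand of chromosome 19 from 28835074 to 28913960. With 20.6 CPM per kb it was exceeded by 1390 of the 20167 genes. Of its 51-base windows, 30.6% also lie in *4430402I18Rik*, a gene on the opposite strand with 1.72 CPM.

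At the basolateral membrane, the light chains y+LAT1 (*Slc7a7*), which exports dibasic amino acids, and LAT2 (*Slc7a8*), which exchanges neutral ones, share the heavy chain 4F2hc (*Slc3a2*). By the most abundant RefSeq mRNA of each, the 3 genes had similar levels per kb. With its shorter RefSeq mRNA, *Slc3a2* had 42.4 CPM per kb and lay above both light chains. *Slc7a8* had a single transcript, NM_016972, with 93.1 CPM (log2 CPM 6.54) and 11 exons on the reverse strand of chromosome 14 from 54722209 to 54781930. *Slc7a7* lies on the same strand of that chromosome, 304428 bases away. Its 3 RefSeq mRNAs had 56.6, 56.5 and 56.1 CPM, and its 3 assembled models had 56.2, 46.4 and 42.8 CPM. The most abundant RefSeq mRNA, NM_001253680, runs from 54369442 to 54409460 and has 10 exons. *Slc7a7* shares 8.74% of its 51-base windows with *Oxa1l* on the opposite strand.

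The 2 transcripts of *Slc3a2*, both on the reverse strand of chromosome 19, had 77.5 and 77.1 CPM, a difference of 0.01 on the log2 scale, although 1 is 2813 nt and the other 1819 nt long. The longer, NM_001161413, lies between 8706882 and 8723369 and has 10 exons. Per kb, *Slc3a2* was 1.04 times as abundant as *Slc7a7* and 1.19 times as abundant as *Slc7a8*. Over the RefSeq models of both genes of a pair, these ratios reached 1.71 and 1.84. Its level was 0.546 of the summed level of *Slc7a7*, *Slc7a8* and *Slc7a5*, and 0.870 at most over the RefSeq models. By these pooled levels the heavy chain was rarer than these light chains together, whereas *Slc3a1* exceeded *Slc7a9* and *Slc7a13* together. Only light chains in the set were summed for *Slc3a2*. Without values of single kidneys, the difference at the ratio of 0.870 is not resolved. *Slc3a2* shares 4.49% of its windows with many other genes, the most with *Aaed1*.

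LAT1 (*Slc7a5*), the third light chain of 4F2hc in the set, imports large neutral amino acids and is known for high expression in proliferating cells. Its 1 transcript, NM_011404, had a mean log2 CPM of 1.52, or 2.87 CPM. It has 10 exons on the reverse strand of chromosome 8 from 121881150 to 121907694 and shares no 51-base window with another gene. Per kb, *Slc7a8* was 28.2 times and *Slc7a7* 32.5 times as abundant, and the heavy chain 33.7 times. By CPM per kb, *Slc7a5* lay above 43.7% of all genes with a length, against 89.0% or more for each other member. The 89.0% is that of *Slc6a20b* with its length counted within the RefSeq bounds. Its full length gives 6.80 in place of 13.2 CPM per kb, and so a lower percentage.

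**Figure D3:**
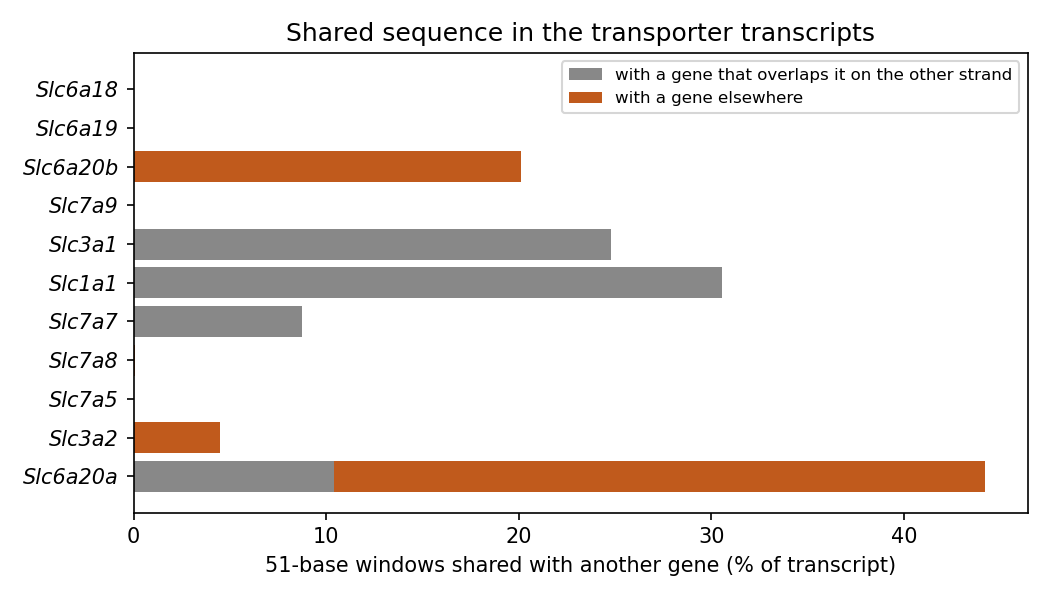
Percent of the 51-base windows of each transcript, and of that of the paralogue Slc6a20a, that occur in a transcript of another gene. Only windows within the bounds RefSeq gives each gene were counted. Grey marks genes that overlap on the other strand and orange marks genes elsewhere. Slc6a18, Slc6a19, Slc7a9 and Slc7a5 have none, Slc1a1 has 30.6% from an overlapping gene, Slc6a20b has 20.1% from genes elsewhere, and Slc6a20a has 33.8% from Slc6a20b and 10.4% from a gene that overlaps it.

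*Tmem27*, for the collectrin on which the Slc6 carriers depend, was read beside them. It had 167 CPM per kb, 1.59 times the level of *Slc6a18* and 10.98 times that of *Slc6a19*. Over the RefSeq models, the ratio of *Tmem27* to *Slc6a18* ran from 1.43 to 3.36. The summed level of *Slc6a18*, *Slc6a19* and *Slc6a20b* was 0.797 of that of *Tmem27*, and between 0.467 and 0.870 over the RefSeq models.

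A list of 46 other genes from families of amino acid transporters was set beside the 10, and all were in the table. Where in the cell their proteins act, and what each carries, was not examined. Of these, 33 had at least 1 CPM and 21 at least 10 CPM, against 10 and 9 of the 10 renal transporters. Over all gene symbols, 55.9% had at least 1 CPM and 32.2% at least 10 CPM. The median level of the list was 1.61 CPM per kb, against 21.9 for the renal transporters and 1.45 for all genes with a length. The 10 had been chosen as transporters of the renal tubule, so this difference in kidney RNA was largely set by the choice of lists. The 46 also include *Slc7a13*, the gene of the other light chain of rBAT. The other transporters ran from 0.0107 CPM per kb for *Slc6a5*, which sits at the lowest level in the table, to 28.4 for *Slc7a12*. Of them 2, *Slc7a12* and the taurine carrier *Slc6a6* with 24.4 CPM per kb, lay above the median of the renal transporters, and 19 lay below *Slc7a5*. By their RefSeq mRNAs per kb, *Slc6a18* and *Slc3a1* were above each of the 46. The most abundant model of *Slc7a12*, an assembled one of 154.3 CPM, has no known length here and was not scaled. By CPM, *Slc6a18* with 210.6 and *Slc3a1* with 196.0 were above that model too.

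By CPM the 5 highest of the list were *Slc7a12*, *Slc6a6*, *Slc38a2*, *Slc43a2* and *Slc38a10*, with 154.3, 150.8, 77.4, 63.2 and 49.1 CPM. *Slc38a2* (SNAT2), a carrier of small neutral amino acids, had 16.6 CPM per kb and *Slc43a2* (LAT4), which exports large neutral amino acids at the basolateral membrane, 8.85. The 154.3 CPM of *Slc7a12* belong to an assembled model, and its RefSeq mRNA had 49.1 CPM.

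**Figure D4:**
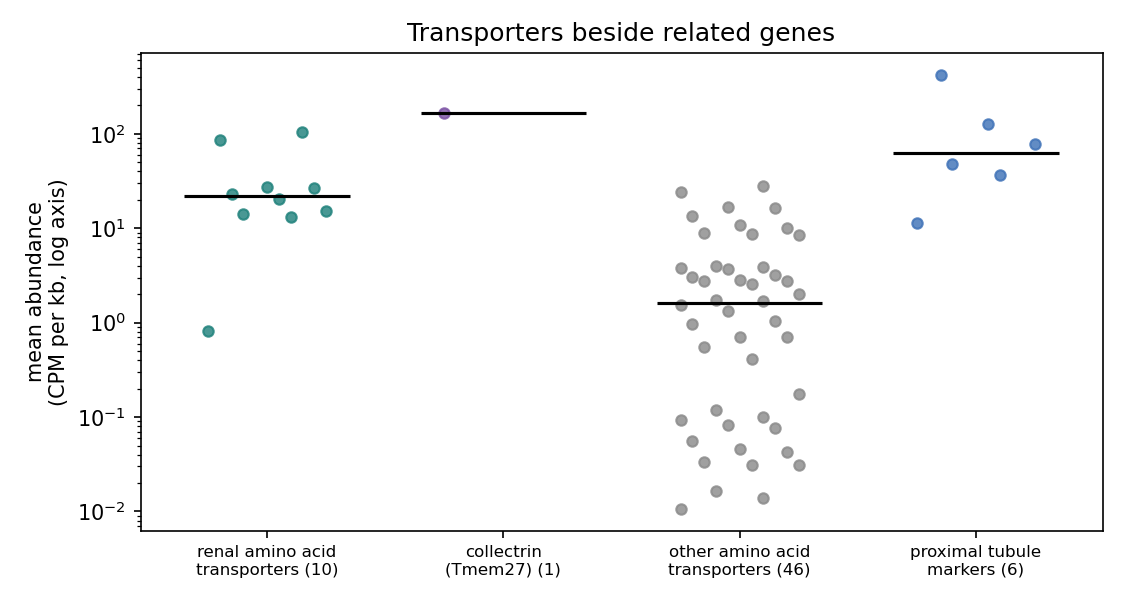
Mean abundance in CPM per kb on a log axis for the 10 renal transporters, Tmem27 (collectrin), 46 other genes from families of amino acid transporters and 6 proximal tubule markers. Each point is a gene and each black line the median of its column, 21.9 for the renal transporters and 1.61 for the other transporters.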

How the data were processed

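Stranded libraries of total RNA were sequenced from 1 end to 51 bases. The genome build was mm10 and the aligner TopHat 2.0.12. Because the authors filtered on mapping quality, reads that fit several places may be absent from the values. The submitters' processing notes also list Cufflinks, featureCounts of Subread 1.4.6 and edgeR 3.2.4. The authors' deposited log2 values are edgeR's mean log2 CPM of each transcript over all 6 libraries. The 4 other value columns hold the authors' own comparison of DKO with SKO (fold change, statistic, p-value and adjusted p-value) and were not used. A count test of DKO against SKO was planned but could not be run, since the table has no value for a single kidney. For the same reason the depth per sample, and with it the precision, is unknown.

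The CPM of all rows sum to 1007270, which follows from the scaling, and those of the most abundant row of each gene symbol to 370295. The first sum also holds 9317 rows without a gene symbol, besides the other transcripts of the named genes. These sums do not show how reads were counted, and a read may be counted once for each overlapping transcript. The lowest level, 0.0263 CPM, is held by 4617 rows. Lengths were taken from the GENCODE M21 transcript paired with each RefSeq identifier (20 of 20 for the 10 genes; 26086 of 27012 in all), within the bounds RefSeq gives the gene on GRCm38.p6. Full GENCODE lengths were used first. The bound was introduced after the values had been seen, because the model of *Slc6a20b* ran past it. The ranks per kb, the window comparison and the coding alignments were also added after the data were seen. Windows within the RefSeq bounds were compared with all GENCODE transcripts on both strands, by exact match. Coding sequences were aligned globally with Biopython 1.88. Python 3.11.15, pandas 2.3.3 and numpy 2.4.6 were used, and the window and rank steps were tested on simulated data.

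All 10 transporters were named, as were collectrin and the 5 other transporters with the highest CPM. *Slc7a13*, *Slc6a5*, *Slc6a20a* and the genes that share sequence were singled out after their values were seen. A further gene of the list to be named is not reported here. The genes and lists were chosen with earlier results of these data known.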

Additional observations from a re-analysis of the deposited data

How the results depend on the processing

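No value of a single kidney was available, so other normalizations, DESeq2, a count filter and leaving out replicates were not run. The median log2 CPM over the 10 genes was 6.25 (6.245) with the most abundant row of each gene. It was 7.196 with the sum of all rows, in which a read can count several times, 6.089 with RefSeq mRNAs alone and 6.022 with the lowest row. By the lowest row, *Slc3a1* fell by 1.48 on the log2 scale, the most of any gene, and the sum of rows raised *Slc6a18* the most, by 2.56. With CPM that is not divided by length, the median gene of the set lay above 96.09% of 23276 symbols. It lay above 93.01% of the 13001 genes of 1 CPM or more, above 95.65% of all transcript rows and, per kb, an alternative added after seeing the data, above 93.5% of genes. Of 45 pairs of genes, 40 were in the same order per kb as by CPM, 33 with the sum of rows, 45 with RefSeq mRNAs alone and 40 with the lowest row. Lengths were first taken as the full GENCODE length and were restricted to the RefSeq bounds after seeing the data. With the full length *Slc6a20b* had 6.80 CPM per kb in place of 13.2, and 40 pairs were again in the order by CPM. *Slc6a18* was first and *Slc7a5* last under each of these settings. The choice among the RefSeq models of *Slc6a18* was not one of them. Over those models its ratio to *Slc3a1* per kb ran from 0.577 to 1.36, so its first place per kb depended on the model. How far the levels vary between mice was not tested.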
